A study of Mus musculus with 2 samples.

Results

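The rodent repeat miRNA loci described here are the rows of the deposited tables whose identifier names a miRNA gene of the Mir297, Mir466, Mir467 or Mir669 family in the GENCODE M21 annotation of the mouse assembly GRCm38 (mm10). The rule uses gene names only, not counts, and found 69 of the 1973 rows. By family they are 6 Mir297, 25 Mir466, 17 Mir467 and 21 Mir669 loci. An intron of Sfmbt2 on chromosome 2 holds 59 of them, and 10 lie elsewhere. A further 12 genes of these names in M21, all in the same intron, matched no row by identifier and were not analysed here. Whether some of the 79 rows without an M21 name stand for them was not tested. The libraries are microRNA sequencing libraries from total RNA of the forebrain of B6NCrl mice at postnatal age 0 days, with no treatment or altered gene named in the labels. Replicate 1 is the forebrain of pup 1 and replicate 2 that of pup 3, in 1 group. With no condition to compare, the results are levels, their spread over the pups (mean ± SD, n = 2), and differences between these libraries.

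Sfmbt2 encodes a polycomb group protein and is an imprinted gene expressed from the paternal allele in early embryos and the placenta. In mouse and rat, an intron of the gene carries a large cluster of miRNA hairpins that arose by repeated local duplication, and mice that lack the cluster have placental defects. Each hairpin is cut from the primary transcript by Drosha and then by Dicer, and the short product guides Argonaute to messenger RNAs through its seed, bases 2 to 8. The transcript of Sfmbt2 itself was not measured by these libraries.

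RefSeq's table of mature miRNAs for GRCm38.p6 matched 8 of the 69 members by symbol, all outside the Sfmbt2 intron. Their mature sequences are shown for the repeats of UG and CA that they carry, and for their seeds, which recur across the group. They are written 5′ to 3′, with the seed in capitals.
miR-466i-3p: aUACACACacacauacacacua
miR-466j: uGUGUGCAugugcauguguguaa
miR-466k: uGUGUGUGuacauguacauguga
miR-466q: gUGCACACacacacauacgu
miR-467f: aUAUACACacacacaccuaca
miR-467g: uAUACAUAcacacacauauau
miR-467h: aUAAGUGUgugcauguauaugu
miR-669n: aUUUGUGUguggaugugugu
No 2 of these 8 share a seed. The seed letters recur across the hairpins of the group, searched as DNA on the gene strand only. The seed of miR-467g, ATACATA, stands in 51 of the 69 member hairpins (73.9%) and in 4.31% of the 2133 other annotated miRNA hairpins. That of miR-466i-3p, TACACAC, stands in 40 members, all 7 detected loci among them, against 6.56% of the others. The seed of miR-467h, TAAGTGT, stands in 2 members, miR-467h's own hairpin and Mir467e, and in 0.563% of the others. The other hairpins include those of genes of these families that matched no row, and of 48 further miRNA rows of the Sfmbt2 intron. A match of 7 letters says only that they occur in the hairpin.

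The hairpins share this composition. TG, GT, CA and AC made up 51.2% of the dinucleotide steps of a member hairpin in the median, with a range of 32.5 to 76.0%. The median over the 1825 other rows with an annotated hairpin, which include 48 of the Sfmbt2 intron, was 26.6%, and 101 of those rows reached the members' median. The steps made up 48.8% in the median of the detected members and 51.7% in that of the others. Member hairpins were 54 to 127 nt long.

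Of the 69 members, 7 were detected, meaning at least 10 counts in both pups, against 16.8% of all 1973 rows. All 7 lie in the Sfmbt2 intron, and they are Mir467c, Mir467d, Mir467e, Mir669c, Mir669e, Mir669l and Mir669o. These 7 held 99.6% ± 0.0590 of the members' counts. At least 1 count in either pup was found at 18 members, against 34% of all rows, and 51 members had none. The members together held 6254 counts in pup 1, or 0.228% of the reads counted on the gene strand (95% exact Clopper-Pearson interval 0.222 to 0.234%). In pup 3 they held 4734 counts, or 0.195% (0.190 to 0.201%). Multimapping reads were tallied apart, with no locus, and numbered 449 per member count in pup 1 and 548 in pup 3. How many of them came from the members was not tested.

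Of the members' counts, which leave out multimapping reads, the Mir467 family held 80.9% ± 0.344, nearly all from 3 of its 17 loci. miR-467 is known in mouse endothelial cells as a repressor of thrombospondin-1, an inhibitor of vessel growth. Mir467d (ENSMUSG00000077021.2, chromosome 2, 10507630 to 10507714, plus strand) had 1841 counts in pup 1 and 1667 in pup 3. As CPM, counts per 1000000 gene-strand counts, that is 671 (95% interval 641 to 703) and 687 (654 to 721), so the pups overlapped. Mir467e (ENSMUSG00000076948.2, 10505721 to 10505807) had 2135 and 1406 counts, or 778 CPM (746 to 812) in pup 1 and 579 CPM (549 to 610) in pup 3. Pup 1 was the higher here, and the intervals did not meet. Mir467c (ENSMUSG00000077049.2, 10473931 to 10474027) had 1096 and 743 counts, or 400 CPM (376 to 424) and 306 CPM (285 to 329), again higher in pup 1.

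Mir467d and Mir467e could not be ordered. Their means were 679 ± 11.0 and 679 ± 141 CPM, ranks 109 and 110 among the 1973 rows, and Mir467e led in pup 1 while Mir467d led in pup 3. Among the members' counts, Mir467e made up 34.1% (33.0 to 35.3%) in pup 1 and 29.7% (28.4 to 31.0%) in pup 3. Mir467d made up 29.4% (28.3 to 30.6%) and 35.2% (33.9 to 36.6%). Mir467c followed with 353 ± 66.1 CPM, 1.92-fold below Mir467e in the means, and made up 17.5% (16.6 to 18.5%) and 15.7% (14.7 to 16.8%) of the members' counts. The hairpins of Mir467c, Mir467d and Mir467e were 94.1 to 95.3% identical in pairwise global alignments.

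The Mir669 family, of which miR-669a is known for holding back the muscle factor MyoD in heart progenitors, held 18.8% ± 0.417 of the members' counts. Its highest locus was Mir669o (ENSMUSG00000077086.1, 10514300 to 10514395), with 454 and 366 counts, or 166 CPM (151 to 181) and 151 CPM (136 to 167). Mir669l (ENSMUSG00000076959.1, 10468971 to 10469068) had 368 and 319 counts, or 134 CPM (121 to 149) and 131 CPM (117 to 147). At both loci the intervals of the pups overlapped. Mir669c (ENSMUSG00000076118.1, 10509296 to 10509404) had 283 and 196 counts, or 103 CPM (91.5 to 116) and 80.8 CPM (69.8 to 92.9). Mir669e (ENSMUSG00000080653.1, 10467495 to 10467613) had 48 and 19 counts, or 17.5 CPM (12.9 to 23.2) and 7.83 CPM (4.71 to 12.2). Pup 1 was the higher at these 2 loci, with intervals that overlapped narrowly at Mir669c and did not meet at Mir669e. Between neighbours in the order Mir467c, Mir669o, Mir669l, Mir669c, Mir669e, the means differed by more than the sum of their SDs, and both pups gave that order. From Mir467d to Mir669e the means spanned 53.6-fold. Counts are of whole short RNAs and were not divided by length.

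**Figure D1:**
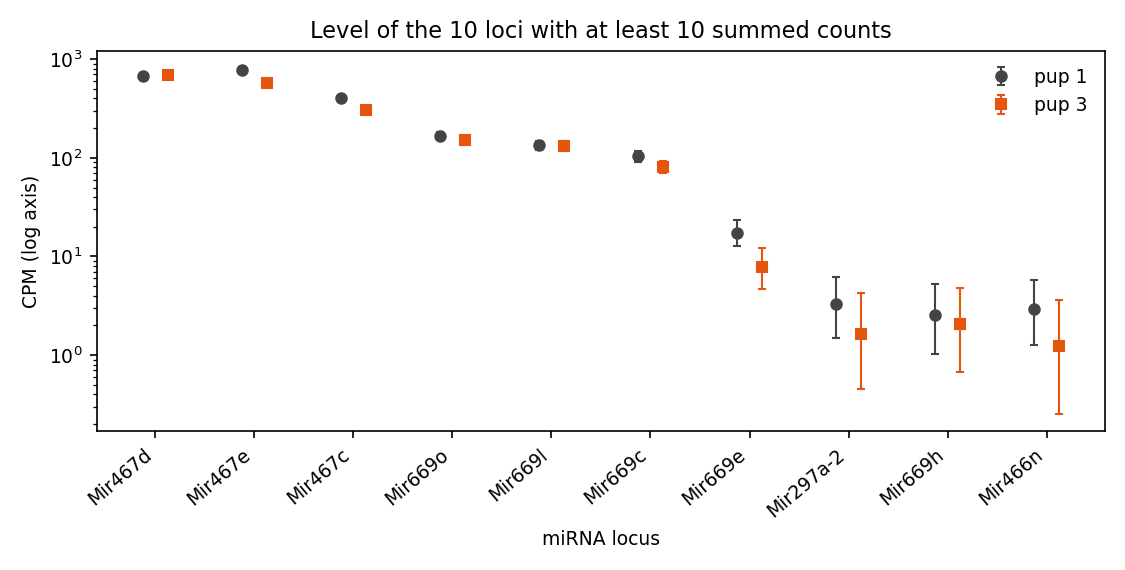
Level in CPM (log axis) of the 10 members with at least 10 summed counts, with circles for pup 1, squares for pup 3 and bars for 95% exact intervals of counting error. Mir467d and Mir467e stand near 679 CPM in the mean, and the 3 loci at the right near 2 CPM.

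No Mir297 or Mir466 locus was detected. The highest Mir297 locus was Mir297a-2 (ENSMUSG00000076983.2, 10472254 to 10472343), with 9 counts in pup 1 and 4 in pup 3, or 2.46 ± 1.15 CPM. The highest Mir466 locus was Mir466n (ENSMUSG00000077991.1, 10513741 to 10513834), with 8 and 3 counts, or 2.08 ± 1.19 CPM. Mir669h (ENSMUSG00000080594.1, 10518155 to 10518279), with 7 and 5 counts, had 2.31 ± 0.348 CPM. The limit that a count of 0 allows, 3 counts, is 1.09 CPM in pup 1 and 1.24 CPM in pup 3, so these levels are near it. The intervals of the 3 loci overlapped between the pups. Another 8 members had 1 or 2 summed counts. No count was found at 5 Mir297, 18 Mir466, 13 Mir467 and 15 Mir669 loci. The Mir466 family, the largest by loci, held 12 of the 6254 member counts in pup 1 and 7 of the 4734 in pup 3. As multimapping reads are left out, these counts may fall short of the family's level, which was not tested. In background knowledge, miR-466l, of this family, binds the Il10 transcript in macrophages. Mir466l, named after its values were seen, had 0 and 1 counts.

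Outside Sfmbt2, the 10 members held 0 counts in pup 1, which allows up to 0.0480% of the members' counts, and 1 in pup 3. The 1 count fell on Mir466q (chromosome 3, 28419943 to 28420018, plus strand), in an intron of Tnik on that gene's strand. The other 9 have no host gene on their strand. Of these, Mir466i (chromosome 13, 17747473 to 17747593), Mir467f (chromosome 11, 69635400 to 69635519), Mir467g (chromosome 5, 34732853 to 34732972), Mir466k (chromosome 3, 85467377 to 85467498) and Mir669n (chromosome 3, 115979902 to 115979955) lie opposite Cdk13, Fxr2, Grk4, Gm37240 and Slc30a7. Mir467h (chromosome 9, 115381819 to 115381939), Mir466j (chromosome 10, 60960723 to 60960844), Mir466f-4 (chromosome 13, 71107089 to 71107209) and Mir297-1 (chromosome 7, 10958437 to 10958512) overlap no other gene. The mature sequences printed above are those of 8 of these loci, 7 of which had no count. The strand opposite the members held 0 counts in both pups, while over all rows 2.41% and 1.87% of the counts of both strands lay opposite the gene.

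The detected loci stood at both ends of the cluster. The Sfmbt2 intron spans 62.5 kb (chromosome 2, 10461473 to 10523944) and runs on the plus strand as the members do. It holds 107 miRNA rows named in M21, the 59 members and 48 with names of other form. None of the 48 had a count on either strand. In the middle of the intron lies a tandem array of 11 copies of Mir467a and Mir467b, counted by name. Of the 10 steps between starts of consecutive copies, 8 were within 30 nt of their median of 2454.5 nt. Gm25022, which lies between Mir467a-9 and Mir467a-10, shares a run of 60 nt with Mir467d as they do, and was not counted as a copy. From the first to the last copy the array is 27.0 kb long (10476346 to 10503355). It holds 55 miRNA rows named in M21, 23 of them members. It had 1 count in each pup, both at Mir467b (named after its values were seen). The 15 members before the array held 1521 and 1087 counts, with 3 detected (Mir669e, Mir669l and Mir467c). The 21 members after it held 4732 and 3645 counts, with 4 detected (Mir467e, Mir467d, Mir669c and Mir669o). The bounds of the array were set after the counts had been seen.

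**Figure D2:**
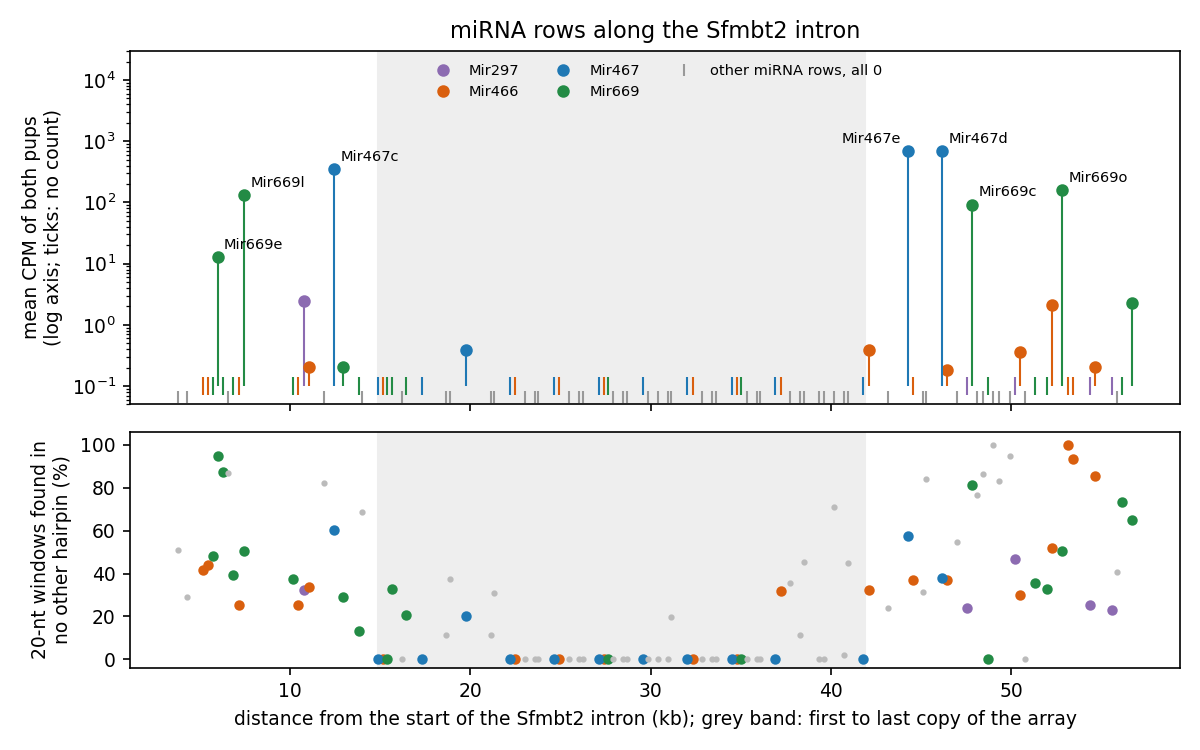
miRNA rows along the Sfmbt2 intron by distance from its start in kb. The upper panel gives the mean CPM of both pups (log axis) as stems coloured by family, with ticks for rows that had no count, and the lower panel the percent of 20-nt windows of each hairpin found in no other annotated miRNA hairpin. The 7 detected loci stand to the left and right of the grey band of the Mir467a copies, where 19 of 23 members have no unique window.

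Most members in the array had no stretch of their own among annotated hairpins. Each hairpin was cut into all windows of 20 nt, and a window was called unique where no other hairpin among the 2202 annotated miRNA hairpins holds it on either strand. No unique window was found in 20 members, 19 of them in the array, and these 20 had no count in either pup. Among the 244 other rows with no unique window, 8 had a count and 5 were detected (2.05%), with up to 47400 counts in a pup. As both strands were searched, a hairpin annotated on the opposite strand of the same place also removes unique windows. Such rows were not told apart from rows with copies at several places. Among the 940 other rows unique in every window, 245 were detected (26.1%). Members with an identical hairpin elsewhere in the annotation numbered 17. Of the 12 members with unique windows on only 1 side of the midpoint, 5 had a count and none was detected, with at most 9 counts in a pup. Of the 37 with unique windows on both sides, 13 had a count and 7 were detected (18.9%). Each detected member had at least 17 unique windows on the 5′ side, but so did Mir669h, with 39, which was not detected. Mir297a-2 had 0 there and Mir466n 4. Of the 29 members with over 10 unique windows there, 7 were detected, and of the 40 with fewer or as many, none. Neither this side nor the cut of 10 was planned. The cut lies below the 17 windows of the lowest detected member, so this split is no separate evidence.

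Unique windows did not always go with counts. The hairpins of Mir466g and Mir669n, named after their values were seen, were unique in every window and had no count in either pup. Mir467d, with 25 of 66 windows unique, had 53.6-fold the mean CPM of Mir669e, with 95 of 100. Mir467d shares a run of 60 nt with 9 numbered copies of Mir467a and with Gm25022, so reads from that stretch have several places. The longest run of Mir467e and of Mir467c is the 48 nt they share with each other. Mir669l shares 57 nt with Mir669d, Mir669o 38 nt with copies of Mir669a, and Mir669c 36 nt with Mir669a-3. The longest run at Mir669e is 24 nt, with Gm27361. Windows were compared with annotated hairpins, not with the genome, so a window called unique may occur elsewhere.

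**Figure D3:**
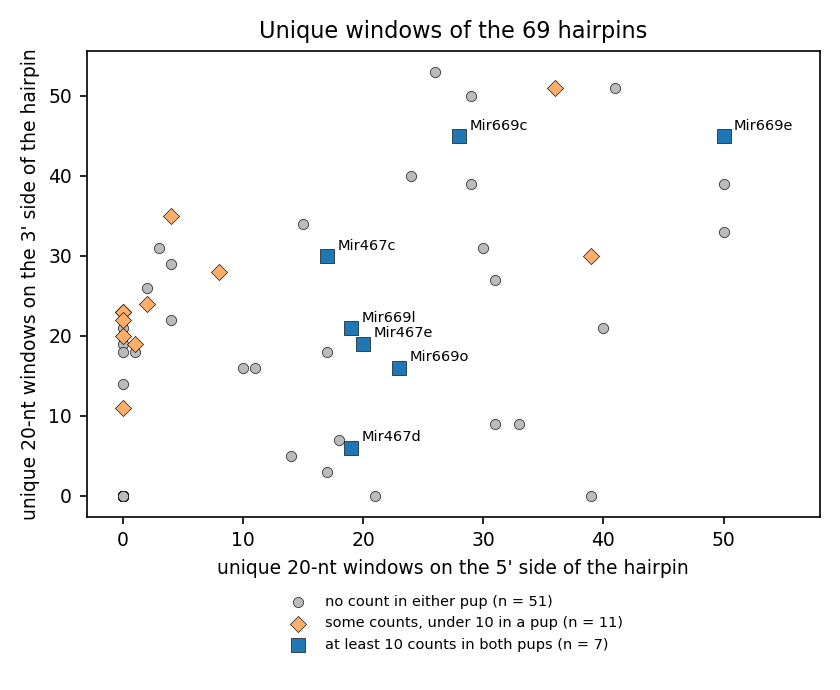
Unique 20-nt windows on the 5′ side (x axis) and the 3′ side (y axis) of the midpoint of each of the 69 hairpins, with squares for detected loci, diamonds for loci with fewer counts and circles for loci with none. The 7 squares lie at 17 or more on the x axis, and 20 circles lie on top of each other at 0 on both axes.

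Between the pups, 4 of the 10 members with at least 10 summed counts were lower in pup 3, 0 were higher and 6 did not pass. Each locus was set against all other counts of its library in a two-sided Fisher's exact test, adjusted by Benjamini-Hochberg over all 400 loci with at least 10 summed counts. It compares 2 libraries, not conditions. It called 56.5% of all tested loci, 46.2% as lower and 10.2% as higher, so the members' share of 4 in 10 is near this background. Mir467e had a log2 ratio of CPM + 1 of −0.43 (adjusted Fisher's exact p = 1.82e-17) and Mir467c of −0.38 (adjusted exact p = 4.97e-08). Mir669c had −0.35 (adjusted exact p = 0.0169) and Mir669e −1.07 (adjusted exact p = 0.00432). Ratios of the 6 others were 0.03 at Mir467d, −0.03 at Mir669l, −0.13 at Mir669o, −0.22 at Mir669h, −0.69 at Mir297a-2 and −0.81 at Mir466n. The median of the 10 was −0.37, beside −0.31 over all 400 tested loci.

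These calls turned on the scale. With DESeq2 size factors the median of all tested loci was −0.018, 45.2% of them were called, and 0 members were lower and 2 higher (Mir467d, log2 ratio 0.35, adjusted exact binomial p = 6.78e-12, and Mir669l, 0.28, adjusted exact p = 0.0256), against 20.8% lower and 24.5% higher of all tested loci. With TMM-adjusted library sizes, which called 46.5% of all tested loci, 2 members were lower (Mir467e, −0.18, adjusted exact p = 0.00106, and Mir669e, −0.84, adjusted exact p = 0.0411) and 1 was higher (Mir467d, 0.28), against 26% and 20.5% of all tested loci. A change of scale moves the ratios of all loci by nearly the same amount, so it does not test their order. At the 7 detected members the counts of the 2 libraries differed by a chi-square of 10.1 per degree of freedom, and over all 331 detected loci by 209. At an equal fold difference this value grows with the counts, which reached 2135 in a pup at a member and 699128 at another row. The 2 values therefore do not show that the members differed less.

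**Figure D4:**
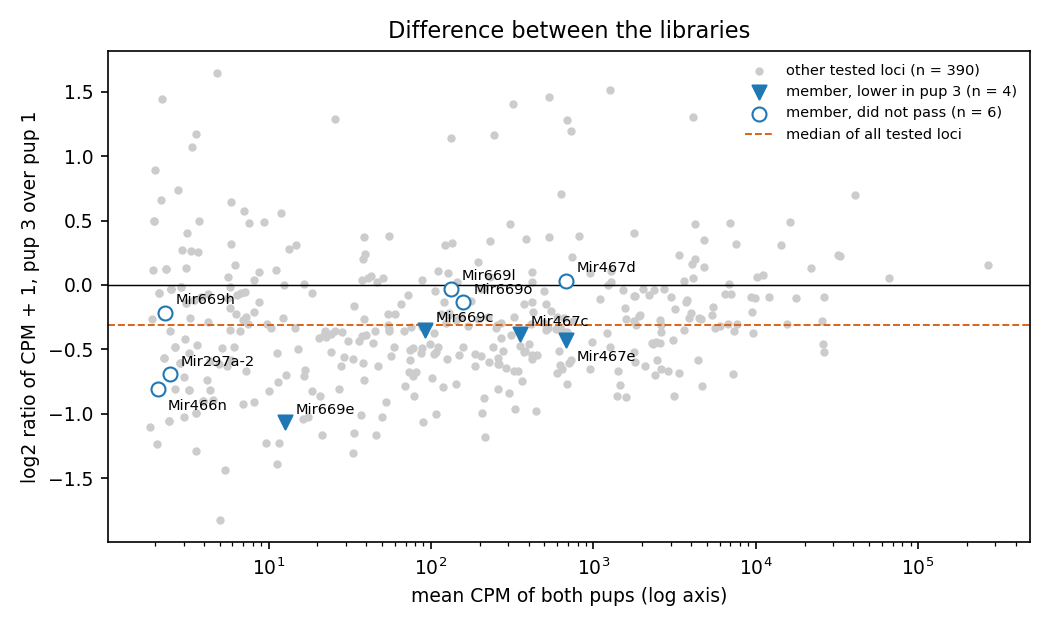
Log2 ratio of CPM + 1 in pup 3 over pup 1 against mean CPM (log axis) for the 400 tested loci, with members as triangles where they were lower and open circles where they did not pass. The 10 members lie from −1.07 to 0.03, on both sides of the dashed median of −0.31.

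The tissue label was checked against loci of other cells. Calls given for these lists use library totals, on which 46.2% of all 400 tested loci were lower in pup 3 and 10.2% higher. The neuron list (miR-124, Mir137, miR-128, miR-138 and miR-129 loci) had counts at 10 of 10 rows, 8 of them detected. It held 4.58% of the counts in pup 1 and 4.11% in pup 3. Mir137 was its highest locus, with 77520 and 56571 counts. Counts at the miR-124 loci were low, with 15 and 21 at Mir124a-1, 5 and 4 at Mir124a-2, and 3 and 2 at Mir124a-3. Of the hairpin windows, 66.7% at Mir124a-2 and 51.0% at Mir124a-3 were unique, so these hairpins share stretches with other annotated ones. As multimapping reads are left out, the miR-124 counts may fall short of the level of miR-124, which was not tested. Of the 8 tested rows of this list, 5 were lower in pup 3 and 2 higher. The list for pluripotent and trophoblast stem cells had counts at 9 of 11 rows, with Mir295 and Mir367 at 0. It held 0.00926% and 0.00523%, most of it from miR-302 loci, and Mir302d (−1.17) and Mir302b (−1.03) were lower in pup 3. The epithelium list, with counts at 7 of 7 rows, held 0.493% and 1.06%, and 5 of its 7 rows were higher in pup 3. The list for hindbrain and spinal cord, with counts at 5 of 6 rows, held 0.0236% and 0.0268%, and 2 rows, Mir10b and Mir196b, were higher in pup 3. The red blood cell list had counts at 3 of 3 rows and held 0.00882% and 0.00713%, with Mir451a lower in pup 3. The white blood cell list had counts at 3 of 3 rows (Mir150, Mir223 and Mir155) and held 0.0379% and 0.0394%, with none called. Mir142, also on that list, matched no row, so its counts are not in this share. The part of other cells in the members' counts was not tested.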

How the data were processed

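For each of the 2 forebrain libraries the authors deposited raw counts of reads at each miRNA gene, without normalization. Per the text deposited with the tables, the assembly is mm10 and the annotation M4. Neither an aligner nor a counting tool is given in the labels used here. Of the 3 unnamed count columns, that of the gene strand was used, as read from their values. Unmapped reads were 13.4% and 12.3% of 6657203 (pup 1) and 5883027 (pup 3) reads, those mapping to several places 42.2% and 44.1%, and those at no gene 3.23% and 2.27%. These 4 rows were left out of the totals of 2742746 and 2427066. M21 names matched 1894 of 1973 rows, and the other 79 had at most 1 count.

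CPM, exact intervals (counting error only, with no molecular identifiers named), Fisher's and binomial tests used Python 3.11.15, pandas 2.3.3 and scipy 1.17.1, and alignments Biopython 1.88. Tests were checked on simulated Poisson counts with equal shares at unchanged loci. That setting lacks the spread and the shift of scale between these libraries, so it does not give error rates for them. Scales came from edgeR 4.0.16 (TMM) and DESeq2 1.42.0. With 1 group, neither tool has a contrast to test. The labels give each library its own pup and replicate number, on which they count as 2 replicates, but both the same donor entry. The spread is that between these samples and may be technical in part. Named loci have at least 10 summed counts or lead their family. Members and lists were chosen with earlier results of these data known. Alternatives were the column of both strands, the most abundant locus left out, each pup alone, other thresholds, pseudocounts, scales and run lengths. Some, marked in the closing section, were added after seeing the data.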

Additional observations from a re-analysis of the deposited data

How the results depend on the processing

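The members' share of counts, 0.212% in the mean, was 0.289% with the most abundant locus left out of the total. It was 0 where only the 2 member hairpins that share no run were kept. By choices added after seeing the data, it was 0.0872% of all reads and 0.0405% without the members' 3 highest loci. Each pup alone gave 0.195 to 0.228%. The intron's share without these 3 loci was 99.9%. With at least 1 count in both pups as the threshold, 12 members were detected in place of 7. Of the 2 members with a unique hairpin 0 were detected, and 7 of 37 where a unique window on each side was enough (also added later). With DESeq2 size factors and TMM, all loci called lower went from 185 to 83 and 104, and higher from 41 to 98 and 82. Members called went from 4 to 2 with size factors, those lower from 4 to 0 and 2, and those higher from 0 to 2 and 1. The members' median log2 ratio became −0.055 and −0.12, and that of all tested loci −0.018 and −0.077. Mir669l, at −0.03, was higher with size factors, at 0.28. Mir669c did not pass with the most abundant locus left out (−0.29). Beyond the change of scale itself, the cause was not tested. A share of hairpin-unique loci in the intron could not be computed, as they had no count. No paired analysis was possible because there is only 1 group.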

Other observations

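Other clusters of miRNA genes, listed for context, differed widely in level from the Sfmbt2 loci. The Mir379 to Mir410 cluster on chromosome 12, imprinted and made from the maternal chromosome, had 29 of 33 rows detected and held 6.21% ± 1.42 of the counts, against 0.212% ± 0.0233 for the 69 rodent repeat loci. The X-linked cluster best known from testis had 7 counts in pup 1 and 5 in pup 3 over 18 rows, none detected. The Mir290 to Mir295 cluster, typical of embryonic stem cells, had 12 and 9 counts over 7 rows, none detected. These differences between clusters were not tested, since loci are not replicates.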
